A study of Drosophila melanogaster with 2 samples.

Results

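The dpr, DIP, beat and side genes of Drosophila melanogaster encode 4 families of immunoglobulin-type surface and secreted proteins, and their sequence held few ChIP-seq peaks for the transcription factor Drgx in embryos. Members were taken from the dm6 gene annotation by symbol: dpr followed by a number, or a symbol beginning DIP-, beat- or side. They numbered 54 of 13945 protein-coding genes, with 21 dpr, 11 DIP, 14 beat and 8 side genes. The data come from 2 biological replicates of a single group, whole embryos 1 day old of a strain that carries Drgx fused to eGFP. Chromatin was precipitated with an antibody against GFP according to the sample descriptions, although the antibody field of the labels names Drgx, and the sonicated fragments were 200 to 800 bp long. The embryo mixes all cell types, so a peak present in few cells and a weak peak in many cells cannot be told apart. Which cells make the fusion protein is not stated. No untagged or input library was analysed here, so each value is set against the same value for all protein-coding genes.

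Dpr proteins are neuronal surface proteins that bind partners of the DIP (Dpr-interacting protein) family on other neurons or on muscles. Known pairs include DIP-alpha with Dpr6 and Dpr10, DIP-gamma with Dpr11, and DIP-delta with Dpr12, and these pairs take part in the choice of synaptic partners and in neuron survival. Beat (Beaten path) proteins bind receptors of the Side (Sidestep) family, and Beat-Ia on motor axons recognises Side on muscles and other tissues during axon guidance. Drgx is a paired-like homeodomain protein, a class that recognises sites with a TAAT core.

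The deposited peak lists carry a signal value per peak, of unstated scale, which is larger in lists made from both replicates. Signals are therefore compared only within a list. The pooled thresholded list, made from both replicates, held 8443 peaks, the conservative thresholded list 7909, and the lists of replicates 1 and 2 held 6349 and 5475. Thresholded means past the authors' limit on the irreproducible discovery rate (IDR), and the corresponding ranked lists hold 77983 to 97308 peaks with no such limit. Read totals are not part of these files, and library depth is therefore unknown. All coordinates are 1-based on dm6, and a summit is the position of highest signal that the authors give for a peak.

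Few members had a peak at a start site. In the pooled list 5 of 54 members (9.26%) had a summit no more than 1000 bp from a transcription start site (TSS), where 25.2% of all protein-coding genes did. They were dpr14, dpr19, dpr20, DIP-eta and side-V. By family this was 3 of 21 dpr genes, 1 of 11 DIP genes, 0 of 14 beat genes and 1 of 8 side genes. The conservative list gave 4 members against 24.1% of coding genes, replicate 1 gave 4 members (7.41%) against 20.4%, and replicate 2 gave 3 members (5.56%) against 18.1%. The 3 members found in all of these lists were dpr14, dpr20 and DIP-eta. No test was made of these shares, because the genes were chosen with earlier results of the same data known.

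**Figure D1:**
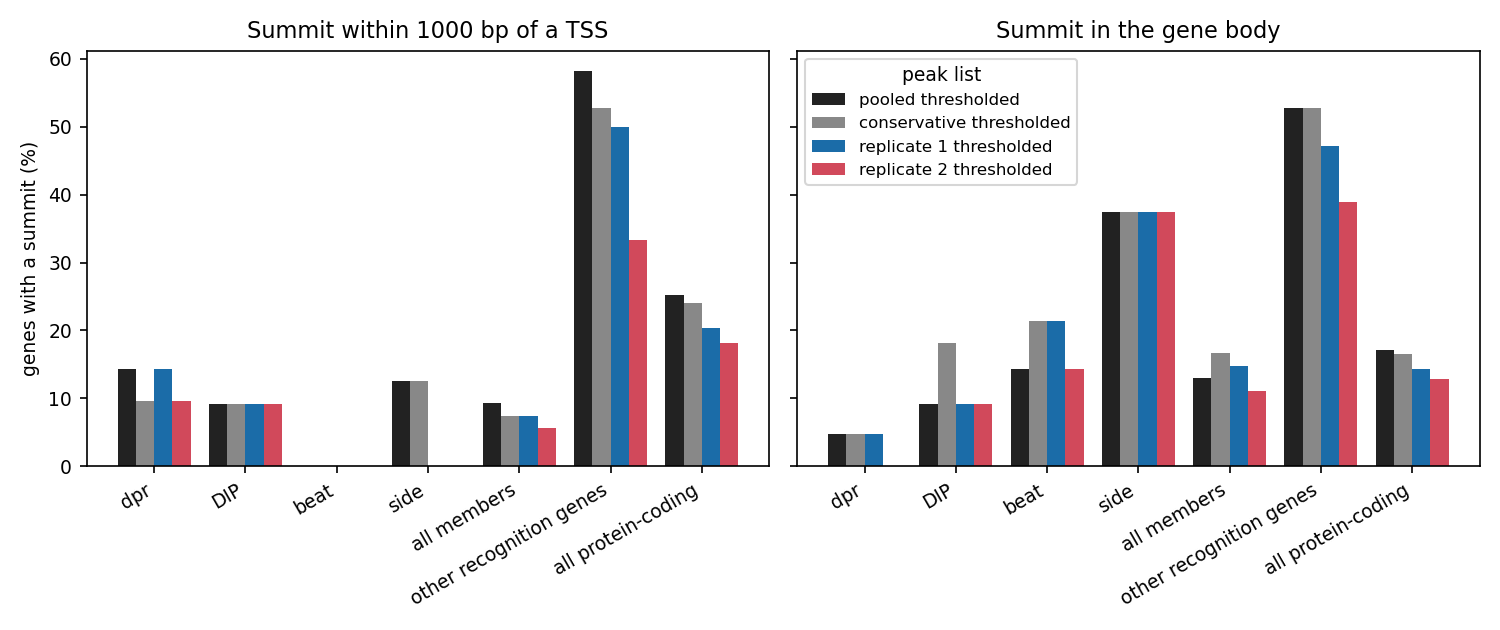
Share of genes (percent, vertical axis) with a summit within 1000 bp of a TSS (left) and in the gene body (right), for each family, all 54 members, 36 other recognition genes and all protein-coding genes, with a bar for each thresholded list. All members together stay at or below 9.26% on the left, while all protein-coding genes lie between 18.1% and 25.2%. The beat genes are at 0 on the left in every list.

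The strongest start-site peak was that of dpr20. Its pooled signal was 402 (rank 664), and the replicates had 164 (replicate 1) and 233 (replicate 2). It peaked 606 bp upstream of the dpr20 start, between genes, and no coding TSS was nearer. The dpr14 peak had a pooled signal of 351 (rank 852), with 196 in replicate 1 and 143 in replicate 2. This summit was 447 bp upstream of the nearest dpr14 TSS and only 198 bp upstream of that of spidey, a lipid enzyme gene on the other side. DIP-eta had a peak 233 bp before its own start, with signals of 167 pooled (rank 2679), 93.8 in replicate 1 and 75.9 in replicate 2. These 3 peaks passed the threshold in both replicates.

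The other start-site peaks were weaker and were not shared by both replicates. The dpr19 summit lay 314 bp before the dpr19 TSS and 97 bp before that of the neighbouring gene CG33303, with a pooled signal of 107 and 78.7 in replicate 1. In replicate 2 only the ranked list had an overlapping peak, with a signal of 23.4. Replicate 1 alone had a second thresholded peak, 98 bp before the dpr19 TSS, with a signal of 3.97. Of the 5 start-site summits 4 lay outside the gene body, and for 3 of the 5 the member had the nearest coding TSS. No other member TSS had a pooled summit closer than the 2376 bp seen at side-IV, so the count does not turn on members just past the 1000 bp limit.

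The sequence around 3 of these summits is shown because these are the start-site peaks found in both replicates. Each line gives 101 bases of the plus strand centred on the summit, from the NCBI Release 6 assembly, with TAAT or its complement ATTA in capitals. The dpr14 and dpr20 windows each held 1 such core and the DIP-eta window held 0.
dpr14, chrX:7908683-7908783: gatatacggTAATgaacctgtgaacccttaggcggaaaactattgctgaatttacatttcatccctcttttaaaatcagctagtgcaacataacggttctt
dpr20, chr3L:857804-857904: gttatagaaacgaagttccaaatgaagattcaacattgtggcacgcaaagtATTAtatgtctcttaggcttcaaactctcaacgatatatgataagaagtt
DIP-eta, chr2L:5618129-5618229: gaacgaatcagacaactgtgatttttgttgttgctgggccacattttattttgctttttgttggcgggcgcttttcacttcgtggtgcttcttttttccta

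Counted by gene, peaks inside the members were about as frequent as in other coding genes. In the pooled list 7 of 54 members (13.0%) had a summit in the gene body, the stretch from the first to the last annotated base, where 17.1% of all protein-coding genes did. The family counts were 1 of 21 for dpr, 1 of 11 for DIP, 2 of 14 for beat and 3 of 8 for side. The conservative list had 9 members (16.7%) against 16.5% of coding genes, replicate 1 had 8 (14.8%) against 14.3%, and replicate 2 had 6 (11.1%) against 12.9%. Taken alone these shares are close to the background and say little about the members, because the members are long. Their gene bodies had a median length of 36.2 kb (range 3.74 to 379 kb), while the median over all protein-coding genes was 2.17 kb.

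Against genes of the same length the members stood low in the pooled list. Of the members of 30 to 100 kb, 5 of 29 (17.2%) had a summit in the body, where 379 of 580 coding genes of that length (65.3%) did. For 10 to 30 kb the values were 1 of 11 members (9.09%) and 727 of 1314 genes (55.3%). Of the 4 members of 100 kb or more 1 had a summit, against 71.1% of the 83 coding genes in that range, and of the 10 members under 10 kb 0 had a summit against 10.1%. In replicate 1 the 30 to 100 kb values were 6 of 29 members against 61.9%, and in replicate 2 they were 5 of 29 against 58.1%. The pooled start-site counts were also lower for members in the 2 middle ranges, with 1 of 29 against 48.1% and 1 of 11 against 44.4%. At 100 kb or more they were 0 of 4 against 51.8%. Under 10 kb 3 of 10 members had a start-site summit, against 21.8% of genes. The 3 are dpr14, dpr19 and dpr20, whose bodies are 4.58, 3.74 and 4.53 kb long.

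**Figure D2:**
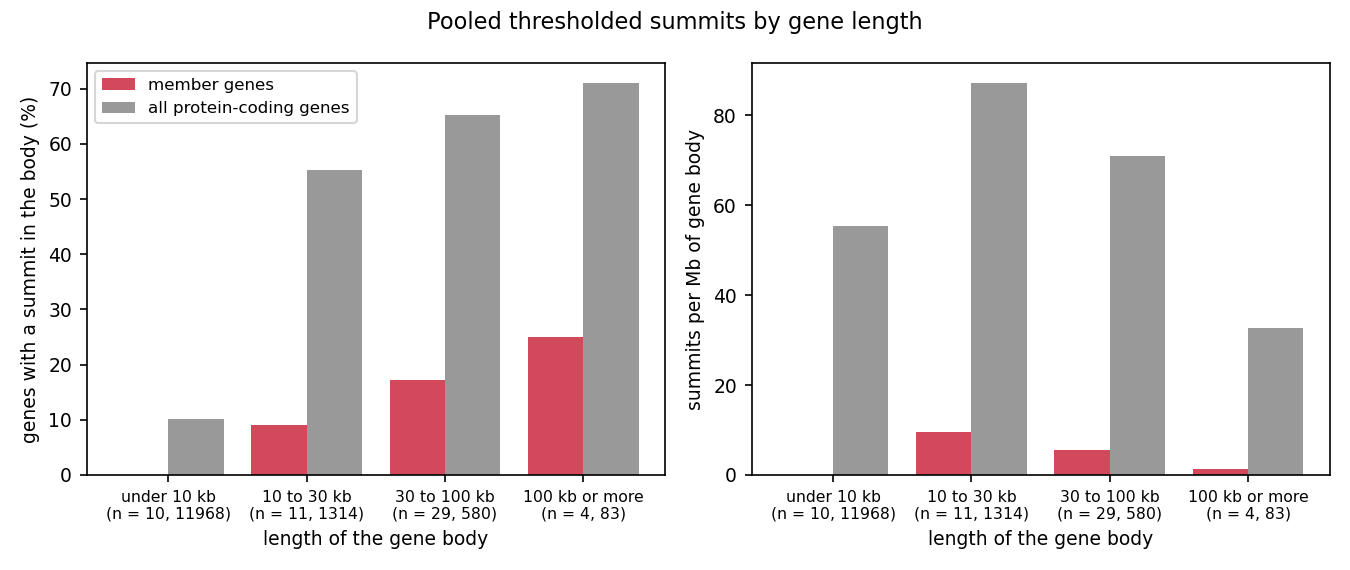
Share of genes with a pooled summit in the body (left, percent) and summits per Mb of gene body (right) for member genes and all protein-coding genes in 4 ranges of gene length, with the number of genes given below each range (members, then all). In the 30 to 100 kb range the bars are at 17.2% for members and 65.3% for all genes, and at 5.53 and 71.0 summits per Mb.

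Expressed per length, member gene bodies held 11 pooled summits in 2.52 Mb, which is 4.36 per Mb (exact Poisson 95% interval 2.18 to 7.81, for counting error only). The bodies of all protein-coding genes had 64.5 per Mb, so the density in members was 0.0677 times as high. Replicate 1 had 3.57 per Mb in members and 48.3 per Mb in all coding genes, and replicate 2 had 2.78 and 41.2. Introns made up 86.5% of the members' bodies, against 57.4% over all coding genes. Within intron sequence alone, taken more than 500 bp from any TSS, members had 7 summits, or 3.21 per Mb, and all coding genes had 72.2 per Mb.

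The low density extended only in part to the surroundings. The 50 kb on either side of the members, leaving out other members, held 154 pooled summits, or 32.7 per Mb. Member bodies were at 0.133 times that value in the pooled list, 0.149 times in replicate 1 and 0.123 times in replicate 2. Among the families the density per Mb was 1.12 in dpr genes, 2.90 in DIP genes, 5.71 in beat genes and 12.0 in side genes, on 1, 2, 3 and 5 summits. These family counts are too small to order the families.

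**Figure D3:**
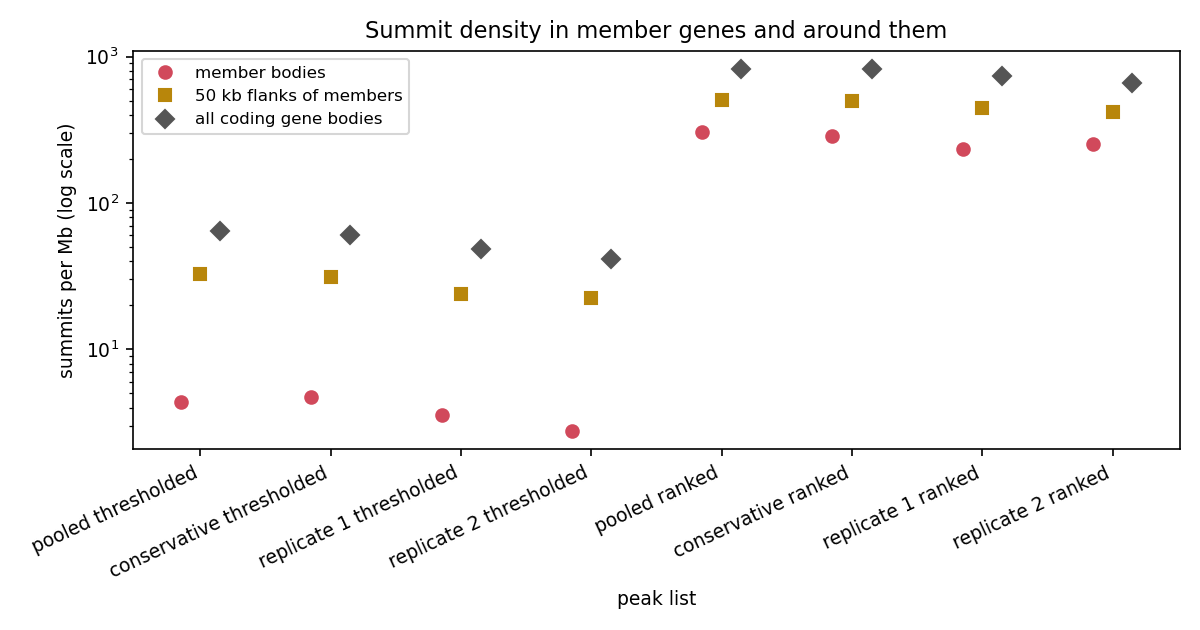
Summits per Mb (log scale) in member gene bodies, in the 50 kb on either side of members and in the bodies of all protein-coding genes, for the 4 thresholded and 4 ranked lists. In each list the member bodies are lowest and the flanks lie between, at 4.36, 32.7 and 64.5 per Mb in the pooled thresholded list.

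The 2 strongest member peaks of all lay deep inside gene bodies, at the start of non-coding genes. In DIP-alpha, a receptor of motor and visual neurons, the peak at chrX:3546190-3546473 had a pooled signal of 634 (rank 270), with 374 in replicate 1 (rank 267) and 261 in replicate 2 (rank 280). This summit was 220 bp before the TSS of lncRNA:CR34335 and 15665 bp from the nearest DIP-alpha TSS. In beat-Ib, a close relative of beat-Ia, the peak at chr2L:15911141-15911409 had a signal of 584 pooled (rank 320), 337 in replicate 1 (rank 342) and 247 in replicate 2 (rank 316). A second beat-Ib peak at chr2L:15912049-15912196 had 255 pooled, 188 in replicate 1 and 65.1 in replicate 2. The first of these summits lay 405 bp before and the second 416 bp after the TSS of lncRNA:CR44867, both more than 50 kb from the beat-Ib TSS at 51149 and 50328 bp.

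The remaining body peaks lay mostly in introns. The receptor gene side-IV had a peak 2376 bp after its start, at chr3R:13452774-13453157, with signals of 219 pooled, 119.6 in replicate 1 and 102 in replicate 2. An overlapping side-IV peak further on had only 25.2 in the pooled list and overlapped the same thresholded peak in each replicate. In beat-IIIc the peak at chr2L:17243293-17243676 had 166 pooled, 100.1 in replicate 1 and 60.6 in replicate 2. In side the peak at chr3R:27407015-27407398, 30275 bp after the start, had 142 pooled, 77.9 in replicate 1 and 71.0 in replicate 2. All 3 of these introns thus had a peak in both replicates.

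The intron peaks of dpr6 and DIP-alpha were seen in fewer lists. The dpr6 intron peak at chr3L:10110400-10110783 had 132 pooled and 87.3 in replicate 1. In replicate 2 it was present in the ranked list only, with 32.7. The second DIP-alpha peak, at chrX:3555418-3555801, had 94.7 in the pooled list and appeared only in the ranked lists of the replicates, with 56.6 in replicate 1 and 41.3 in replicate 2.

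The windows below are those of the strongest body peak of DIP-alpha, beat-Ib, beat-IIIc, side and side-IV, each past the threshold in both replicates. They are printed in the same way as the start-site windows. The intron peak of side-V also passed in both replicates, and its window is not shown. The letters TAATTA, a palindrome that holds the core on both strands, were in the beat-IIIc and side windows.
DIP-alpha, chrX:3546280-3546380: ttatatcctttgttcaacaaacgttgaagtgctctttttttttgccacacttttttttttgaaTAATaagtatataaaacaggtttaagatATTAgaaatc
beat-Ib, chr2L:15911236-15911336: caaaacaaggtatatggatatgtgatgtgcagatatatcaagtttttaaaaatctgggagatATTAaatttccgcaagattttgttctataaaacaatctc
beat-IIIc, chr2L:17243435-17243535: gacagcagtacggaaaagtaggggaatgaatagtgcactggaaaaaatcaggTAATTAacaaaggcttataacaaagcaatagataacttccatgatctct
side, chr3R:27407157-27407257: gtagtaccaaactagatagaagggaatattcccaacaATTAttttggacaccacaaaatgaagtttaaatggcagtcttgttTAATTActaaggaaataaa
side-IV, chr3R:13452916-13453016: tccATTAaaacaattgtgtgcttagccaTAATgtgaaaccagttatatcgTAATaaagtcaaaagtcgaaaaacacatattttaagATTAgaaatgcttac

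Both peaks of side-V, which lies on another chromosome arm, were modest. An intron peak 5227 bp after the start, at chr2R:23198554-23198937, had signals of 149 pooled, 85.0 in replicate 1 and 61.4 in replicate 2. The start-site peak, 57 bp after the TSS at chr2R:23203724-23204107, had 74.4 in the pooled list (rank 7307) and no thresholded partner in either replicate. In the ranked lists its partners had 36.7 in replicate 1 and 34.7 in replicate 2. This start-site peak is the only one of the 5 that lay inside the gene body.

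**Figure D4:**
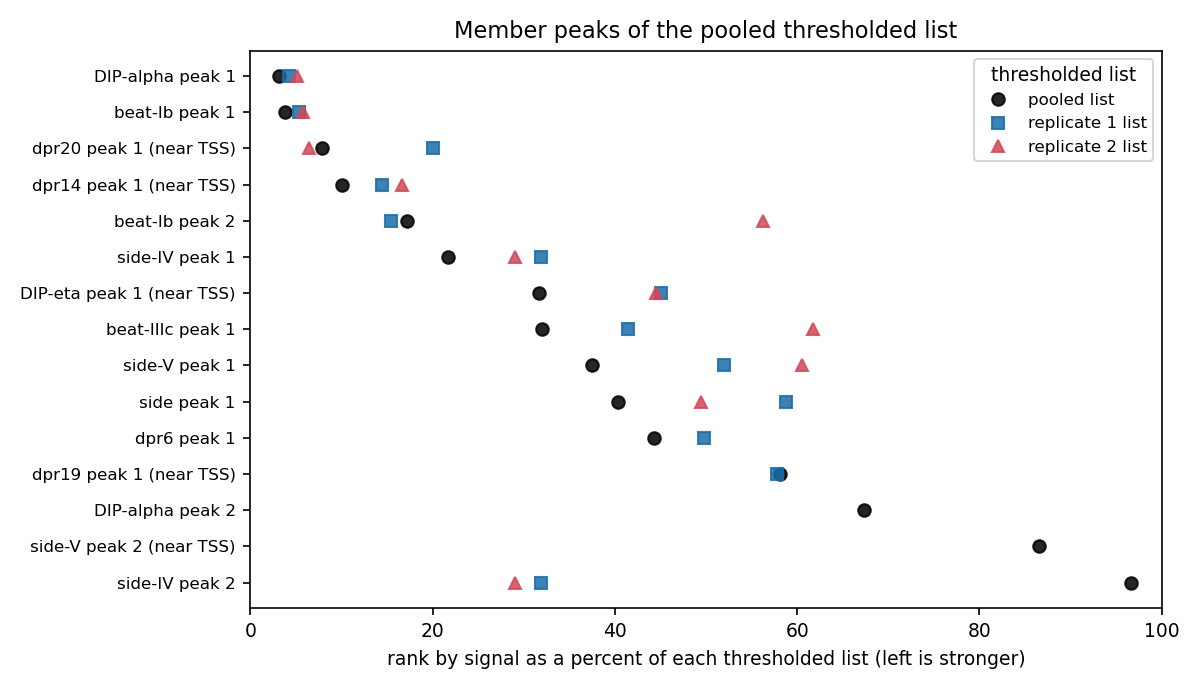
Rank by signal, as a percent of the list, of the 15 pooled peaks at members (rows, strongest at the top), in the pooled list and, where a thresholded peak overlaps, in the lists of replicates 1 and 2. Peaks 1 and 2 of a gene are in order of position, and both side-IV peaks overlap the same replicate peak. DIP-alpha peak 1 is at 3.20% (pooled), 4.21% (replicate 1) and 5.11% (replicate 2), and 4 peaks have no replicate 2 point.

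The few member peaks were not the weakest of the list. The 15 distinct pooled peaks had a median signal of 166 (range 25.2 to 634), against a median of 120.1 over all 8443, and 11 of the 15 ranked in its upper part, above the middle rank. A thresholded peak of replicate 1 overlapped 13 of the 15, where 71.5% of all pooled peaks had such a partner. A replicate 2 peak overlapped 11, against 61.4%. Both counts include the 2 overlapping side-IV peaks, which met the same peak in each replicate. By annotation 7 summits were at promoters (within 500 bp of any TSS), against 36.8% of all pooled summits, 7 were in introns, against 45.0%, and 1 was between genes, against 14.6%. Member summits were taken only from gene bodies or within 1000 bp of a TSS. That choice itself limits the share between genes, so the class shares are descriptions only. Of the 7 promoter summits 4 were within 500 bp of a member's own TSS and 3 within 500 bp of a non-coding gene's TSS.

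The windows of 101 bases around the 15 summits were AT-rich, with a median of 30.7% G and C (range 20.8 to 47.5%), against 34.7% over all pooled summits. The 4-base core TAAT, on either strand, was in 13 of 15 windows, and in 66.6% of all summit windows. TAATTA was in 2 of 15 against 7.97%, and TAAT followed by ATTA after 2 or 3 bases was in 0 of 15, against 1.07% and 1.39%. GAGAGAG, the word of the GAGA factor, was in 0 of 15 against 2.93%, GGTCACAC, part of a core promoter motif, in 0 against 0.497% and the E-box CACCTG in 0 against 2.19%. All words were sought on both strands, and windows with TAATTA also count for TAAT. With 15 windows these shares are descriptions, and the share of TAAT moves with the base composition.

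Values of some known binding partners are set side by side as a description. Of the 54 members 11 had any pooled summit near a TSS or in the body, so nothing about pairing is read from them. Over all protein-coding genes 25.2% had a pooled summit near a TSS and 17.1% one in the body. DIP-alpha had 2 pooled body summits and its partner dpr6 had 1, while its other partner dpr10 had 0, with the nearest pooled summit 12.7 kb from the dpr10 start. Neither DIP-gamma nor its partner dpr11 had a thresholded summit near a TSS or in the body in any list, and the same held for DIP-delta and dpr12. The receptor gene side had 1 pooled body summit, and beat-Ia, which encodes its partner on motor axons, had 0. The nearest pooled summit to beat-Ia was the second one of beat-Ib, 138 kb away, and beat-Ic, between these genes, had 0 summits as well. Side-IV had 2 pooled summits, from overlapping peaks, and 1 in the conservative list. The partner gene beat-IIb had 0 pooled summits, although the conservative list had a beat-IIb intron peak with a signal of 85.6 (rank 6157).

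Across the 4 thresholded lists 14 members had a summit near a TSS or in the body in at least 1 list and 40 had it in none. This combined count was not made over all protein-coding genes, so it is a description only. In single thresholded lists 18.1% to 25.2% of those genes had a start-site summit and 12.9% to 17.1% a body summit. Beside the 11 members of the pooled list, DIP-kappa and beat-IIb appeared in the conservative list alone, with signals of 85.5 and 85.6. In replicate 1 alone beat-VII had an intron peak with a signal of 95.5 (rank 2801). The 3 longest members without a pooled body summit in each family were dpr8, dpr21 and dpr11; DIP-lambda, DIP-gamma and DIP-kappa; beat-VI, beat-IIa and beat-IIIa; and side-III, side-VI and side-II. For dpr8 the body was 140.1 kb long and the nearest pooled summit 84.0 kb from its TSS, and side-III had 96.7 kb with the nearest summit 48.9 kb away. In beat-VI these values were 56.6 and 77.4 kb, and in DIP-gamma 45.4 and 34.7 kb.

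**Figure D5:**
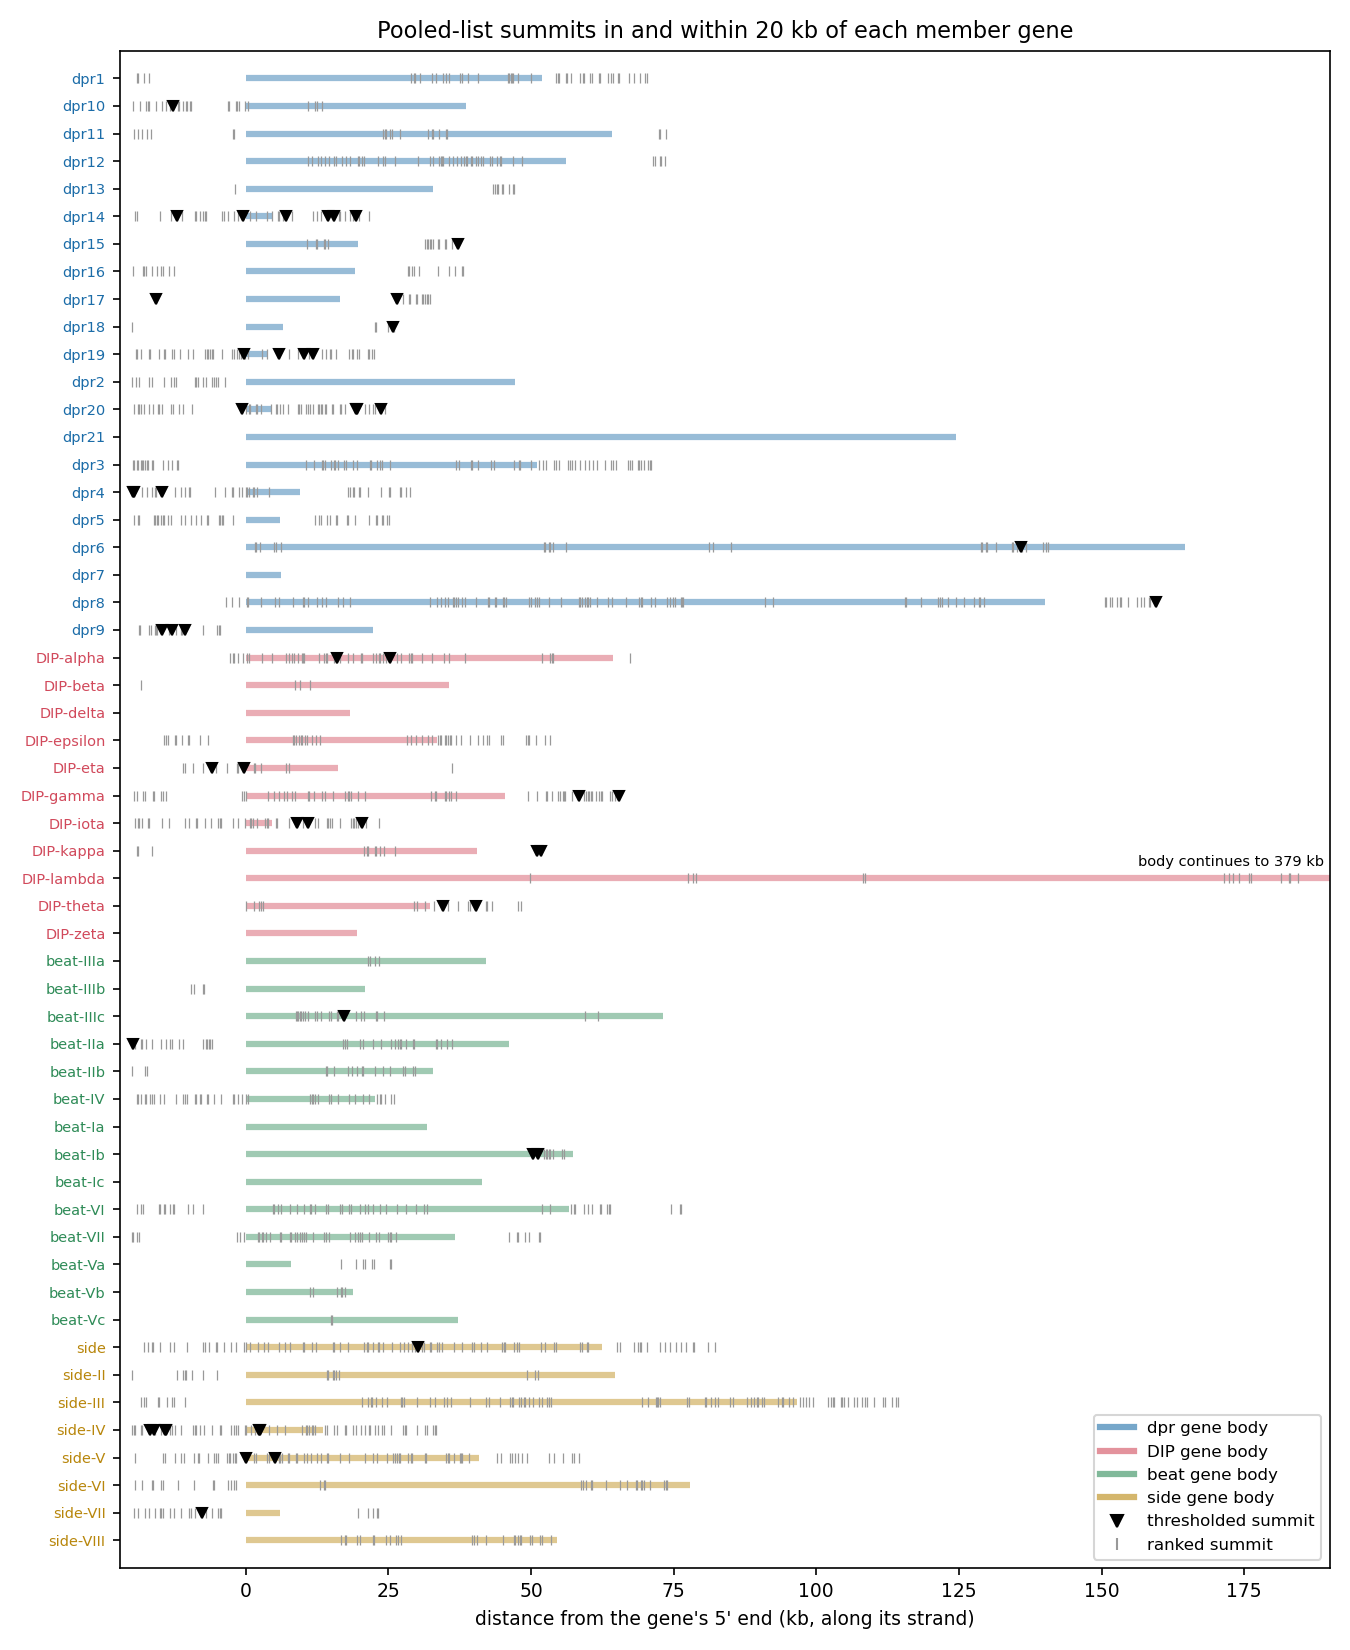
Summits of the pooled thresholded list (black triangles) and the pooled ranked list (grey ticks) in each of the 54 member genes and 20 kb on either side, by distance in kb from the 5' end of the gene (horizontal axis). Coloured bars are gene bodies, and the DIP-lambda body of 379 kb runs past the right edge. Of the 54 genes 7 have a thresholded summit in the body, and 38 a ranked one.

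The distance to the nearest peak shows the same without a limit. From a member's TSS the nearest pooled summit was a median of 37.7 kb away (quartiles 17.9 and 80.8 kb), against 5.27 kb (0.976 and 14.2 kb) over all protein-coding genes. The medians were 25.8 kb for dpr, 38.1 kb for DIP, 71.6 kb for beat and 26.6 kb for side genes. Of the 54 members 46 (85.2%) had no pooled summit within 10 kb of a TSS, against 33.6% of coding genes. For the 47 members with no summit in the body, the nearest one lay a median of 28.7 kb beyond its ends. Of the 47, 39 were more than 10 kb from it. These gaps were not measured over all protein-coding genes, so whether they are unusual is not known. The strongest peak of the whole list, with a signal of 3414, lay 4425 bp past the 3' end of DIP-iota and 8991 bp from its TSS, while DIP-iota itself had no thresholded summit near its TSS or in its body.

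A group of 3 members lay in long stretches without any pooled peak. DIP-lambda and dpr21, on the proximal part of 2R, were 5.43 Mb and 2.69 Mb from the nearest pooled summit, and no pooled summit lay to their left on the arm. The dpr7 gene, on chromosome 4, was 546 kb away from the nearest of the 2 peaks of that chromosome. Whether the reads could be placed in these stretches was not tested. Without these 3 genes, members had 5.47 summits per Mb of body, and coding genes chosen in the same way had 69.8.

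The ranked lists hold peaks far below the threshold, and in them the deficit per length of gene body was smaller. The density in members was 0.370 times that of all coding genes in the pooled ranked list, against 0.0677 times in the pooled thresholded one. In the pooled ranked list 18 of 54 members (33.3%) had a start-site summit, against 76.5% of coding genes, and in the conservative ranked list 19 did, against 75.6%. Replicate 1 gave 24 members (44.4%) against 75.2%, and replicate 2 gave 23 (42.6%) against 76.1%. By family the pooled ranked counts were 6 of 21 dpr, 5 of 11 DIP, 4 of 14 beat and 3 of 8 side genes. Body counts were near the background: 38 members in the pooled ranked list (70.4%) against 72.8%, 37 in the conservative one (68.5%) against 72.2%, 39 in replicate 1 (72.2%) against 70.7%, and 42 in replicate 2 (77.8%) against 71.7%. Per length the members were again lower, with 306 against 825 summits per Mb in the pooled ranked list, 234 against 733 in replicate 1 and 251 against 658 in replicate 2.

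The ranked peaks in members also scored low. The score runs to 1000 and is higher where the IDR is lower, and thresholded peaks have at least 830. The 771 pooled ranked summits in member bodies had a median score of 45.0, which is the lowest score in that list, against 105 over all ranked peaks. Of the member summits 1.43% reached 830, against 8.87% of all. Replicate 1 gave 1.52% against 7.56% and replicate 2 gave 1.11% against 7.18%. The member summits that reached 830 numbered 11 (pooled), 9 (replicate 1) and 7 (replicate 2). These are the same numbers as the thresholded summits in member bodies, so the shares are not a separate result. Counts of ranked body summits differed between the members, which also differ in length. In the pooled ranked list dpr8 had 79, side-III 61, side 56, dpr12 46 and DIP-alpha 45. There 16 members had 0, while 72.8% of all coding genes had at least 1. Per Mb of body dpr20 (1546), DIP-iota (1533), side-IV (1103) and side-V (1074) were highest, and dpr8 had 564. The dpr20 and DIP-iota values rest on 7 summits each. Across the 54 members the number per kb in replicates 1 and 2 had a Spearman's rho of 0.66, a description only, since both lists share the genes' sequence and may share an input. In all 8 lists together 8 members had no summit near a TSS or in the body: dpr7, dpr17, dpr18, DIP-delta, DIP-zeta, beat-IIIb, beat-Ic and beat-Va. The same count over all protein-coding genes was not made, so whether 8 of 54 is unusual is not known. In the pooled ranked list alone 76.5% of coding genes had a start-site summit and 72.8% a body summit.

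Other surface proteins that neurons and muscles use for recognition gave different values. The 36 such genes were listed by name, and most encode immunoglobulin, leucine-rich-repeat, teneurin or cadherin proteins. Their median length was 39.2 kb. Of these, 21 (58.3%) had a pooled summit within 1000 bp of a TSS, against 25.2% of all protein-coding genes. In the body 19 (52.8%) had one, against 17.1%. Among coding genes of 30 to 100 kb the start-site and body shares were 48.1% and 65.3%. Replicate 1 gave 18 and 17 of the 36, against 20.4% and 14.3% of all coding genes. Replicate 2 gave 12 and 14, against 18.1% and 12.9%. The bodies of the 36 genes held 90 pooled summits, or 42.2 per Mb, against 64.5 per Mb over all coding genes. Of the 90 summits 31 lay in 1 gene, kirre, with a body of 394 kb. The member density was 0.103 times that of the 36 genes. The strongest start-site peaks were those of the adhesion gene Nrt (172 pooled, 111 in replicate 1 and 43.7 in replicate 2), the Toll-family receptor gene 18w (149.5, 92.8 and 56.2), kek4 (145, 90.1 and 59.5) and the adhesion gene Fas2 (139 pooled, 94.9 in replicate 1, no thresholded replicate 2 peak). The difference between these genes and the members was not tested.

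Features of the annotation moved with the start-site count. Of the members 42 of 54 (77.8%) had a single TSS position, against 73.5% of coding genes, and 8 (14.8%) had another coding gene's TSS within 1000 bp, against 42.9%. Among genes with a single TSS position 3 of 42 members (7.14%) and 18.5% of coding genes had a pooled start-site summit, and among genes with more TSS positions 2 of 12 members (16.7%) and 43.9% of coding genes did. Among genes with no other coding TSS within 1000 bp these were 3 of 46 members (6.52%) and 19.2% of genes, and among those with a near neighbour 2 of 8 members and 33.2%. The part of gene activity, chromatin state or mappability in these values was not tested.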

How the data were processed

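ChIP-seq peaks came from 2 replicates of 1 group. The deposited readme texts trace the lists to dm6 alignments and to other files, 1 of which all lists share and none of which was analysed here. Which aligner and peak caller made them is unstated (not given in the sources used here). The authors deposited per peak a score set from the IDR, a signal value, a −log10 q value (read only to check its range) and a summit offset. Lists from both replicates are the authors' pooled lists, and no depth is known. Genes came from Ensembl release 115 and sequence from NCBI Release 6, and 0 peaks lay beyond a chromosome end. Summits were counted on 6 chromosomes within 1000 bp of a TSS and in gene bodies, using Python 3.11.15, numpy 2.4.6, pandas 2.3.3 and scipy 1.17.1, and peaks of different lists were matched by an overlap of at least 1 bp. Counting was tested on simulated summits in 200 genes, of which 200 were recovered exactly. Members and lists were chosen with earlier results of these data known, so no test was made. Named are members with a start-site summit, the 3 per family with the strongest or most body summits, the 3 longest without one, and the 4 other recognition genes with the strongest start-site summit. All 36 symbols of that list matched the annotation.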

Additional observations from a re-analysis of the deposited data

How the results depend on the processing

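The count of members with a summit within 1000 bp of a TSS, 5 in the pooled list, was 18 (against 76.5% of coding genes) with the ranked list, 3 (against 15.0%) with the 4221 strongest peaks and 3 (against 19.8%) where the member had to have the nearest coding TSS. Leaving out a replicate gave 3 to 4. In the 5 other alternatives it was 4 to 6, with 6 (against 48.8%) within 5000 bp. With the ranked list the body count of 7 was 38 (70.4%, against 72.8%). It was 11 (20.4%, against 33.0%) with 1000 bp added on either side, and leaving out a replicate gave 6 to 8. The 4221 strongest peaks gave 7 members (13.0%), against 11.0% of coding genes. Density in member bodies, 4.36 per Mb, was 306 with the ranked list and 2.78 to 3.57 without a replicate. The count of other recognition genes, 21, was 8 (22.2%, against 15.0% of coding genes) with the 4221 strongest peaks and 12 to 18 without a replicate. Ranked-list values rest on 97308 peaks, against 8443, by construction. Leaving out the 3 members far from any summit, and recounting the other recognition genes, were chosen after seeing the data. Of the 11 members with a pooled peak, 10 had a partner for their strongest one in the conservative list, 11 in replicate 1 and 9 in replicate 2. No paired analysis was possible because there is 1 group. Library depth is unknown.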
